A study of Mus musculus with 6 samples.

Results

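Opioid and endocannabinoid signalling genes were profiled in primary cultures of mouse dorsal root ganglia (DRG), which lie beside the spinal cord and house the somata of sensory neurons with their glia. The set was chosen by gene symbol and held 10 of the 45703 genes in the count table. It consisted of the 4 opioid receptor genes Oprm1, Oprd1, Oprk1 and Oprl1, the peptide precursor genes Penk and Pdyn, the cannabinoid receptor genes Cnr1 and Cnr2, and the endocannabinoid hydrolase genes Faah and Mgll. Every sample was a wild-type C57BL/6 culture from animals aged 4 to 6 weeks, kept for 7 days in vitro in medium holding 10% serum plus the growth factors EGF and FGF (10 ng/ml), and RNA came from 2 dishes. There were 6 biological replicates and a single group. Whether each came from different animals is not stated. No other condition was analysed, so levels were compared between genes and between replicate cultures and never with the intact ganglion.

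The opioid receptors are G protein-coupled receptors that couple to inhibitory G proteins, lower cyclic AMP, close presynaptic calcium channels and open potassium channels. Their peptide ligands are cut from precursors: enkephalins from the Penk product and dynorphins from the Pdyn product. The cannabinoid receptors couple to the same G proteins, and their lipid ligands anandamide and 2-arachidonoylglycerol (2-AG) are made on demand and broken down mainly by the products of Faah and Mgll. In the DRG, the mu receptor (Oprm1) and the CB1 receptor (Cnr1) are known as neuronal receptors that restrain transmission of pain signals, and the CB2 receptor (Cnr2) is known mainly from immune cells.

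The libraries held 20070639 to 22968642 counts. Levels are given as CPM, a gene's counts divided by its library's total and scaled to 1000000 counts, and, where genes are compared with each other, as CPM per kilobase of combined exon length (CPM per kb). All 13 neuronal markers examined were over 3 counts in every library, with a summed level of 1116 to 2436 CPM. The same held for all 8 peripheral glia markers (5521 to 8039 CPM), all 8 fibroblast markers (3380.3 to 14686 CPM) and all 8 mural cell markers (307 to 2023 CPM). Macrophage markers (7 of 8, 14.6 to 139.7 CPM) and endothelial markers (7 of 8, 10.8 to 142 CPM) were lower. Of 8 lymphocyte markers, 1 was over 3 counts in every library, and Cd3e, Cd3g, Ms4a1 and Cd8a were among those at or under 3 counts throughout. The cultures were therefore mixtures, and in such bulk samples fewer cells of a type and less RNA per cell cannot be told apart. Replicates 1 and 5 were the extremes of the peripheral glia, fibroblast, macrophage, mural and endothelial lists.

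Oprm1 and Oprd1 differed widely in level, while the difference of Cnr1 from Cnr2 per kilobase of combined exons did not pass its test. Upstream windows of these 4 receptor genes are shown. They are RefSeq sequences on GRCm38.p6, the 250 bases before an annotated start, written 5′ to 3′ on the gene's strand, with every CG dinucleotide in capitals. They cover Oprm1 at chr10:6788320-6788569 (plus strand), Oprd1 at chr4:132144487-132144736 (minus strand), Cnr1 at chr4:33924014-33924263 (plus strand) and Cnr2 at chr4:135894939-135895188 (plus strand).
Oprm1: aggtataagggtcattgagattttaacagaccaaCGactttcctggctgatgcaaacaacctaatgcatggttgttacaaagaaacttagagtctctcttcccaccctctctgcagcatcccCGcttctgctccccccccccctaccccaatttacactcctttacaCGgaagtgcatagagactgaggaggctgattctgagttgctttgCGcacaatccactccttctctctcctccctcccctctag
Oprd1: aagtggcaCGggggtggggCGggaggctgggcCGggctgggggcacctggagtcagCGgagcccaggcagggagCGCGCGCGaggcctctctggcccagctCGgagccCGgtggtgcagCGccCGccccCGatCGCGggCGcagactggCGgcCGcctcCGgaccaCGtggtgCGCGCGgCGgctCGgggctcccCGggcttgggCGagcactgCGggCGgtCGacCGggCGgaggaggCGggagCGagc
Cnr1: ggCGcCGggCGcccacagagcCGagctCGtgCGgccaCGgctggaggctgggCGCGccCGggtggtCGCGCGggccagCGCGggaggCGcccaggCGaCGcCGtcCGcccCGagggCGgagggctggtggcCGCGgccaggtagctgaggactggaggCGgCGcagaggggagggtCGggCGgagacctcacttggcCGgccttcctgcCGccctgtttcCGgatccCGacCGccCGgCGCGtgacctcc
Cnr2: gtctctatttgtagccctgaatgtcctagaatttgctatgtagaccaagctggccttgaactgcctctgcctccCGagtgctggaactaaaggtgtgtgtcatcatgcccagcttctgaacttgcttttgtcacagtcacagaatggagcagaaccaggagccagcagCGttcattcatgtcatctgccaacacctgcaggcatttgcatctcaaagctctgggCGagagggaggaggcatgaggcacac

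The windows of Oprd1 and Cnr1 held 34 and 36 CG dinucleotides, and those of Oprm1 and Cnr2 held 4 and 3. The median over 32851 windows of the same length was 6. The hexamer GGGCGG, searched on both strands with overlapping matches counted, occurred 4 times in the Oprd1 window and 5 times in the Cnr1 window, and had no match in the other windows printed; 32.7% of all windows held it. The motif TATAAA had no match in these 4 windows, and 12.4% of all windows held it. A CG-rich window thus belonged to a receptor that was nearly uncounted (Oprd1) and to one that was counted in every library (Cnr1). Oprm1, Cnr1 and Cnr2 each have further annotated starts whose windows are not printed. Those held 0 and 4 CG dinucleotides for Oprm1, 28 and 5 for Cnr1 and 3 for Cnr2, so the CG content of Oprm1 and Cnr1 differed between starts. Among the 4 printed windows, the bases after the start lay in a transcript of the GENCODE M21 annotation for Oprd1 only. They also did so for unprinted starts of Oprm1 (0 CG dinucleotides) and Cnr1 (28). The printed Oprm1 window lies inside the gene, which begins at 6758593. Which start was in use was not tested.

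Of the 10 genes, 5 were over 3 counts in every library: Oprm1, Penk, Cnr1, Faah and Mgll. By the same rule 36.2% of all genes and 62.2% of protein-coding genes were counted. With at least 10 counts required in every library the members counted were again 5 (33.0% of all genes), and with at least 1 CPM they were 4 (30.4%), since Oprm1 was at 0.911 CPM in replicate 2. Summed over the 10 genes, the level lay between 42.5 and 80.9 CPM, and Mgll alone made up 77.8% of the counts. The plot of levels by gene and library shows that the members spanned the range from no count at all to 68.6 CPM.

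**Figure D1:**
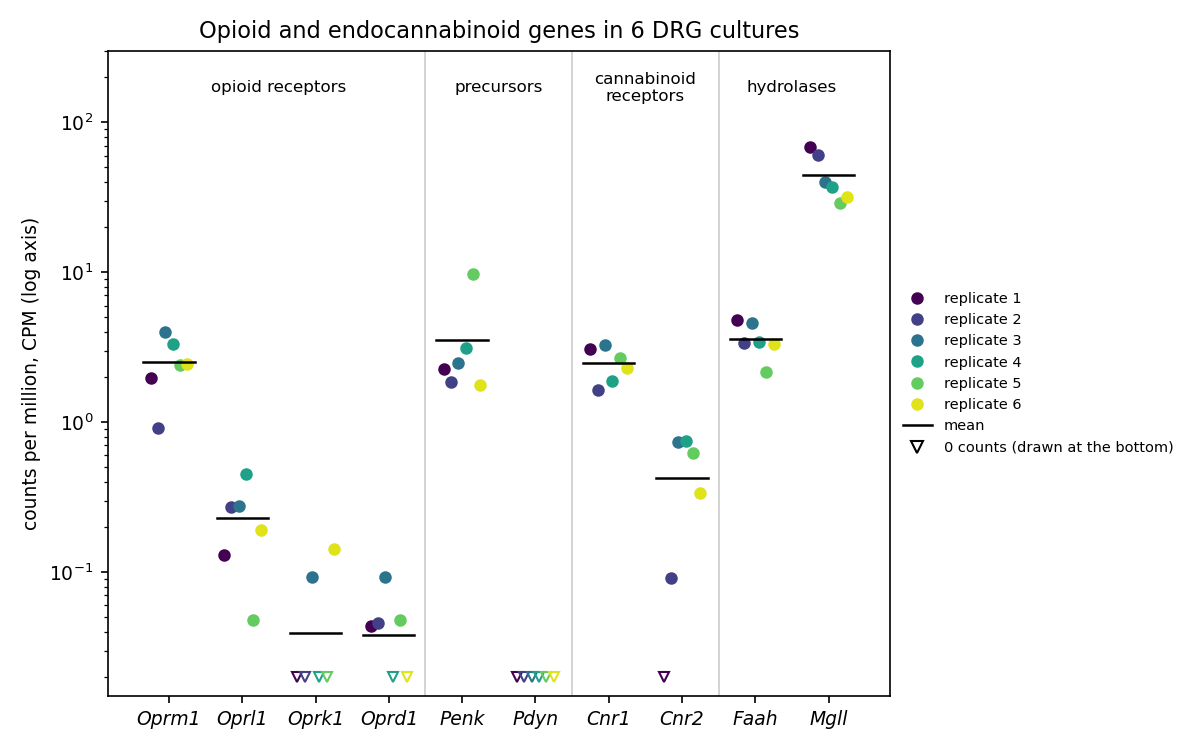
CPM of each of the 10 genes in each of the 6 cultures on a log axis, grouped by role; points are libraries, horizontal lines are means, and open triangles stand for libraries with 0 counts. Mgll lies between 28.8 and 68.6 CPM in all libraries, Pdyn has 0 counts in all 6, and the Penk level of replicate 5 (9.75 CPM) stands above the other 5.

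Among the opioid receptors, the mu receptor gene Oprm1 (gene identifier 18390; chromosome 10, 6758593 to 7038209) was the highest. Its level was 1.96, 0.911, 3.97, 3.34, 2.39 and 2.44 CPM in replicates 1 to 6, from 45, 20, 86, 67, 50 and 51 counts. Replicate 2 was the lowest and replicate 3 the highest, a 4.36-fold range around a mean of 2.50 ± 1.07 CPM (SD, n = 6). On the opposite strand Oprm1 overlaps Ipcef1, which had 16 to 42 counts. In the GENCODE M21 annotation of the same build the genes share 96 of 8037 exonic bases of Oprm1 (1.19%), and, although the library kit was a stranded one, the strand setting of the counting is not given in the sources used here.

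The nociceptin receptor gene Oprl1 (18389; chromosome 2, 181715000 to 181720985) had 3, 6, 6, 9, 1 and 4 counts in replicates 1 to 6. That was 0.228 ± 0.139 CPM (SD, n = 6), and 4 libraries were over 3 counts. The delta receptor gene Oprd1 (18386; chromosome 4, 132110188 to 132144486) had 1, 1, 2, 0, 1 and 0 counts. The kappa receptor gene Oprk1 (18387; chromosome 1, 5588450 to 5606134) had 2 counts in replicate 3, 3 in replicate 6 and none elsewhere. For each of Oprd1 and Oprk1 the 5 counts in all 6 libraries together correspond to 0.0389 CPM, with a 95% exact Poisson interval of 0.0126 to 0.0908 CPM. Intervals of this kind cover counting error only. The delta and kappa receptor transcripts were thus close to the limit of detection at this depth.

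Per kilobase, Oprm1 exceeded each of the other opioid receptor genes in all 6 libraries. The difference in log2(CPM per kb + 0.1) was 2.10 ± 0.549 from Oprd1, 2.10 ± 0.505 from Oprk1 and 1.52 ± 0.582 from Oprl1 (SD over 6 libraries). Each gave p = 0.0312 in a two-sided exact permutation of signs, the smallest that 6 libraries allow, and p = 0.0402 after adjustment over 9 differences. The size of these differences depends on the pseudocount of 0.1, because the other opioid receptor genes had mean levels below it. With counts summed over the libraries, the Oprm1 level per kilobase was 47.5 times that of Oprd1 (95% counting interval 20.2 to 147), 47.0 times that of Oprk1 (19.9 to 146) and 6.02 times that of Oprl1 (4.11 to 9.14). With the longest GENCODE M21 transcripts as lengths these ratios were 106, 123 and 14.1, because that of Oprm1 spans 2420 bases and its combined exons 6447. The smallest excess over Oprl1 was found in replicate 2, at 1.83-fold, where Oprm1 itself was lowest. Oprl1 was above Oprd1 and above Oprk1 in all 6 libraries, with mean differences of -0.58 ± 0.381 and -0.58 ± 0.377 for Oprd1 minus Oprl1 and Oprk1 minus Oprl1 (exact sign-flip permutation p = 0.0312, adjusted 0.0402 for both). Without length scaling the first of these missed the threshold (difference -1.17, exact sign-flip permutation, adjusted p = 0.0703). In replicate 5 Oprl1 and Oprd1 had 1 count each, so their order there came from exon length alone (3530 against 4802 bases). Oprk1 had 0 counts against 1 of Oprl1 in replicate 5, and 3 against 4 in replicate 6. Both results thus rest on very few counts. For Oprd1 and Oprk1, the ratio of summed levels was 0.989 with a counting interval of 0.228 to 4.30, so a difference of up to about that size in either direction was not detectable.

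**Figure D2:**
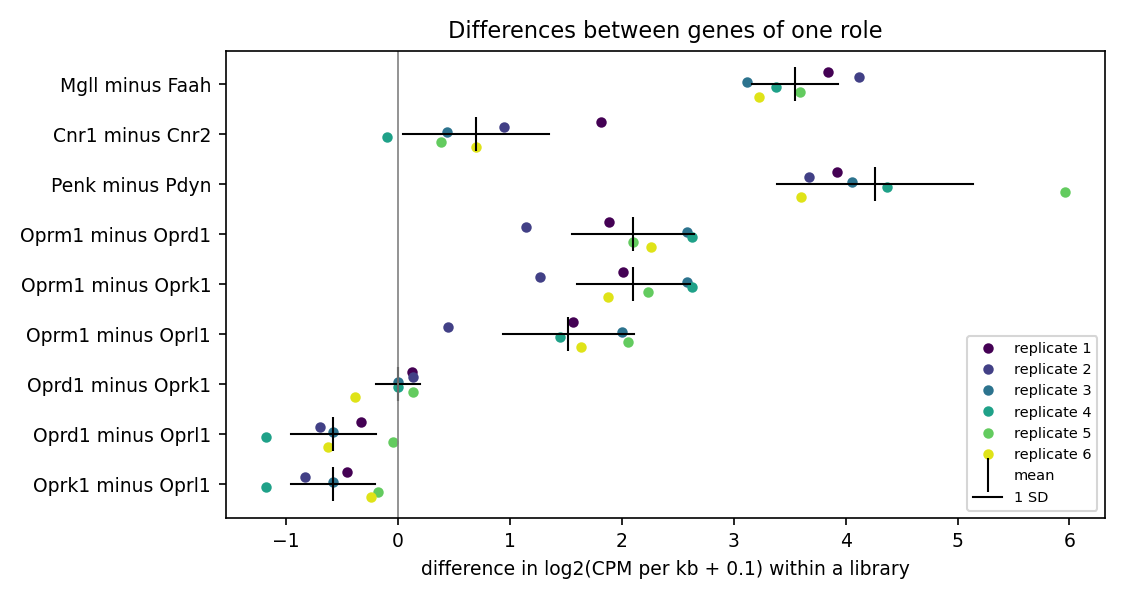
Differences in log2(CPM per kb + 0.1) between genes of the same role, taken within each library; points are the 6 libraries, vertical ticks are means and horizontal lines span 1 SD either side. The 3 differences of Oprm1 from the other opioid receptors, and those of Penk and Mgll from their counterparts, lie above 0 in all 6 libraries, whereas Cnr1 minus Cnr2 falls below 0 in replicate 4.

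Of the opioid peptide precursors, only the enkephalin precursor gene was counted. Penk (18619; chromosome 4, 4133536 to 4138815) had a level of 2.26, 1.87, 2.49, 3.14, 9.75 and 1.77 CPM in replicates 1 to 6, from 52, 41, 54, 63, 204 and 37 counts. Replicate 5 was 4.23 times the mean of the other 5 libraries, which lay between 1.77 and 3.14 CPM. Pdyn (18610; chromosome 2, 129686549 to 129699938) had 0 counts in all 6 libraries, which allows a level of up to 0.0233 CPM (3 counts over the 6 libraries together). Against that floor, Penk was at least 240.4-fold higher per kilobase, and at least 132-fold higher without replicate 5. These folds hold for that floor only and make no allowance for the counting error of Penk. The difference in log2(CPM per kb + 0.1) was positive in all 6 libraries, at 4.26 ± 0.876 (SD; exact sign-flip permutation p = 0.0312, adjusted p = 0.0402), and its size depends on the pseudocount because Pdyn was at 0. In GENCODE M21, 233 of the 1634 exonic bases of Penk are shared with the opposite-strand gene A830012C17Rik, which had 0 counts in every library.

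The high Penk level of replicate 5 coincided with high levels of markers of other cell types. In that library the fibroblast markers summed to 14686 CPM against 3380.3 to 7791 CPM in the others, and the endothelial markers to 142 CPM against 10.8 to 48.4 CPM. Macrophage markers were also highest there, at 139.7 CPM, and the peripheral glia and neuron markers were lowest, at 5521 and 1116 CPM. The part of these cell types in the Penk level was not tested.

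The cannabinoid receptor genes were both low. Cnr1 (12801; chromosome 4, 33923171 to 33948831), which encodes CB1, had a level of 3.09, 1.64, 3.28, 1.89, 2.68 and 2.29 CPM in replicates 1 to 6, from 36 to 71 counts. Its mean was 2.48 ± 0.653 CPM (SD, n = 6), the smallest relative spread of the 5 genes counted in every library (26.3%). Cnr2 (12802; chromosome 4, 135895189 to 135920219), which encodes CB2, had 0, 2, 16, 15, 13 and 7 counts. Replicates 1 and 2 held almost none of it, and replicates 3, 4 and 5 held 0.739, 0.747 and 0.621 CPM. The summed macrophage markers followed a similar order: 14.6 and 25.2 CPM in replicates 1 and 2, 102, 113 and 139.7 CPM in replicates 3, 4 and 5, and 34.9 CPM in replicate 6, where Cnr2 was at 0.335 CPM. The mural and endothelial lists were also lowest in replicates 1 and 2, at 307 and 706 CPM and at 10.8 and 24.6 CPM, and reached 2023 and 142 CPM in replicate 5. The part of these cell types in the Cnr2 level was not tested.

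Per kilobase of combined exons, Cnr1 was above Cnr2 in 5 of 6 libraries, with a difference of 0.70 ± 0.649 on the log2 scale that did not pass the test (exact sign-flip permutation p = 0.0625, adjusted 0.0703). This result depends on the length used. The combined exons of Cnr1 span 12300 bases, and its longest GENCODE M21 transcript spans 5807. With the latter length the difference was 1.42 and with no length scaling 2.64, and both passed (exact sign-flip permutation, adjusted p = 0.0352 and 0.0402).

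The 2-AG hydrolase gene Mgll (monoglyceride lipase; 23945; chromosome 6, 88724412 to 88828360) was the most abundant of the set. Its level was 68.6, 60.9, 40.0, 36.8, 28.8 and 32.0 CPM in replicates 1 to 6, with a mean of 44.5 ± 16.3 CPM (SD, n = 6). Replicates 1 and 2 stood above the other 4, and the highest library was 2.38 times the lowest. At 9.51 CPM per kb, Mgll lay above 58.2% of the protein-coding genes that were over 3 counts in every library. It was the only member above their median of 7.10 CPM per kb. Its count in replicate 4 was 738.2, the single value of the 60 that was not whole. Gm26588 overlaps Mgll on the opposite strand and had 0 to 9 counts.

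Faah (fatty acid amide hydrolase; 14073; chromosome 4, 115996668 to 116018837), whose product breaks down anandamide, was far lower. Its level was 4.79, 3.37, 4.62, 3.44, 2.15 and 3.30 CPM in replicates 1 to 6, with replicate 5 the lowest. Within each library the Mgll level per kilobase was 9.54 to 19.9 times that of Faah. The difference in log2(CPM per kb + 0.1) was 3.55 ± 0.383 and positive in 6 of 6 libraries (SD; exact sign-flip permutation p = 0.0312, adjusted p = 0.0402), which is larger than the spread between cultures.

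Ordered by mean CPM per kb, the 10 genes ran Mgll (9.51 ± 3.49), Penk (2.23 ± 1.93), Faah (0.700 ± 0.188), Oprm1 (0.388 ± 0.166), Cnr1 (0.202 ± 0.0531), Cnr2 (0.0973 ± 0.0758), Oprl1 (0.0646 ± 0.0393), Oprk1 (0.00827 ± 0.0133), Oprd1 (0.00795 ± 0.00723) and Pdyn at 0 (SD, n = 6). Neighbours were taken to differ beyond their spread where the first was higher in all 6 libraries and the mean log2 difference exceeded its SD. That held from Mgll down to Cnr1 and for Oprl1 over Oprk1. It did not hold for Cnr1 and Cnr2, for Cnr2 and Oprl1 (higher in 4 of 6), for Oprk1 and Oprd1, or for Oprd1 and Pdyn. The order of Faah and Oprm1 turned when the longest GENCODE transcript gave the length (2420 bases for Oprm1): Oprm1 was then at 1.03 and Faah at 0.652 CPM per kb. Without length scaling the order of Penk and Faah turned: Faah was above Penk in 5 of 6 libraries, with means of 3.61 and 3.55 CPM, and without replicate 5 the means were 3.90 and 2.31 CPM. Per kilobase, Penk fell to 1.45 without replicate 5 and kept its place in the order. Oprk1 was at 0.00389 without replicate 6, below the 0.00954 of Oprd1.

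Replicate cultures differed in these genes by more than counting noise. Counts were tested with chi-square against expectations from edgeR's TMM-scaled library sizes. With Benjamini-Hochberg adjustment over 14998 genes, this called all 5 members that passed edgeR's filter on low counts. The same test called 76.3% of all genes tested, so this count is near the background. DESeq2 size factors gave the same 5 calls and 76.3%, and library totals gave 5 calls and 76.9%. Adjusted p-values were 3.85e-146 for Mgll, 3.77e-57 for Penk, 1.99e-08 for Oprm1, 7.20e-05 for Faah and 0.00584 for Cnr1. The other 5 members did not enter this test. With every gene of at least 1 count included, where the test called 50.2% of genes, Cnr2 was called as well (chi-square test, adjusted p = 0.000157). Oprl1, Oprk1 and Oprd1 were not (adjusted p = 0.192, 0.101 and 0.722).

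The Penk call rested on replicate 5, since without it the adjusted p was 0.0604 (chi-square test on edgeR's scaled library sizes). The Cnr1 call rested on replicate 2 in the same way, with an adjusted p of 0.0675 without that library. Calls of the other 3 genes held whichever library was left out. Leaving out replicates 1 to 6 in turn, the test called 5, 4, 5, 5, 4 and 5 members and 70.5%, 73.0%, 73.1%, 74.8%, 66.8% and 73.7% of all genes. The spread was also set against genes of similar abundance, by edgeR's biological coefficient of variation, the relative spread of levels beyond counting. It was 0.574 for Penk, where 94.9% of the 1372 tested genes with a mean CPM within 0.5 log2 units had a lower value, and 0.312 for Mgll, where 96.2% of 2547 such genes did. Oprm1 had 0.388 (85.7% lower), Faah 0.267 (65.9%) and Cnr1 0.246 (56.0%). In edgeR's quasi-likelihood fit, a test of each gene's spread against the trend of like genes called 0 of 14998 genes. The reference of that test was estimated from the spread of these same genes, with 2.49 prior degrees of freedom. Calls after adjustment were therefore hard to reach, and no conclusion is drawn from the 0. At an unadjusted p under 0.05 this edgeR test had 809 genes (5.39%). Mgll and Penk were among these, with adjusted p of 0.901 and 0.916 in the edgeR fit across all genes.

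**Figure D3:**
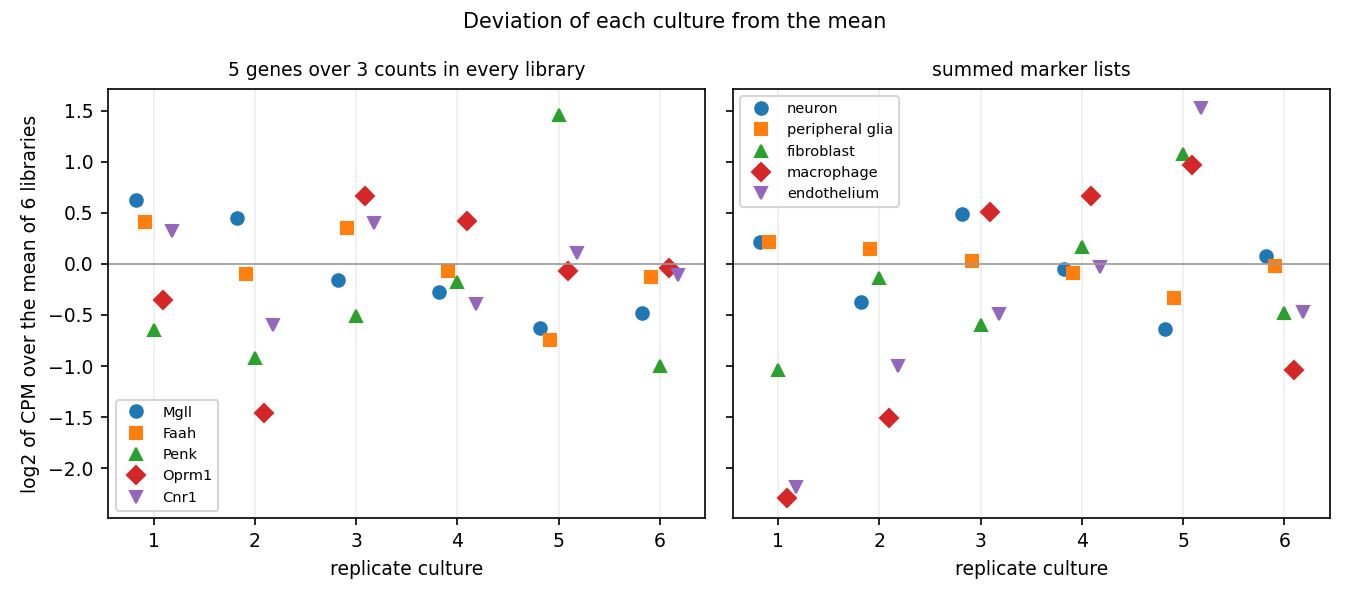
Left, log2 of the CPM of each of the 5 genes counted in every library over its mean of 6 libraries; right, the same for the summed CPM of 5 marker lists. Mgll and Faah are lowest in replicate 5, where Penk and the fibroblast, macrophage and endothelium lists are highest, and Oprm1 is lowest in replicate 2.

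Each of the 5 genes was also related to the neuron, peripheral glia, fibroblast and macrophage marker lists across the 6 libraries, which gave 20 relations. None passed after adjustment (lowest adjusted p 0.222 for Pearson's r and 0.389 for Spearman's rho, exact permutation over 720 pairings). The strongest was that of Penk with peripheral glia, at r = -0.94 (exact permutation p = 0.0125, adjusted 0.222) and rho = -0.83 (p = 0.0583, adjusted 0.389); r fell in size to -0.63 when replicates 2 and 5, which lay farthest from that list's median, were set aside. Faah with fibroblast had r = -0.88 (exact permutation p = 0.0306, adjusted 0.222) and rho = -0.66 (p = 0.175, adjusted 0.389), and r was -0.29 without replicates 1 and 5, so it rests on those libraries. Faah with neuron had r = 0.82 (exact permutation p = 0.0389, adjusted 0.222) and rho = 0.71 (p = 0.136, adjusted 0.389), with r = 0.69 without replicates 2 and 5. Oprm1 with neuron had r = 0.59 (exact permutation p = 0.218, adjusted 0.393) and rho = 0.49 (p = 0.356, adjusted 0.474), and r was 0.30 without replicates 2 and 5. Oprm1 with macrophage had r = 0.65 (exact permutation p = 0.160, adjusted 0.319) and rho = 0.54 (p = 0.297, adjusted 0.457), and r was 0.86 without replicates 1 and 5. Penk had r = 0.79 with fibroblast and 0.66 with macrophage, and 0.85 and 0.90 without replicates 1 and 5. Its r with neuron was -0.57. Mgll had r = 0.79 with peripheral glia, and 0.70 without replicates 2 and 5. With macrophage and fibroblast its r was -0.78 and -0.73, and -0.46 and -0.04 without replicates 1 and 5. Its r with neuron was 0.12. Faah with peripheral glia had r = 0.79, and 0.72 without replicates 2 and 5. Cnr1 with neuron had r = 0.58, and 0.88 without replicates 2 and 5. Some relations changed sign when libraries were set aside. Cnr1 with peripheral glia went from r = -0.15 to 0.83 without replicates 2 and 5. Faah with macrophage went from r = -0.52 to 0.54 without replicates 1 and 5. The labels give no culture or sequencing batch, so none of these relations could be computed within batches.

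For each of the 5 genes, the 3 genes most alike in pattern were taken by Pearson's r over the 6 libraries among 11944 genes with a mean of at least 5 CPM. With 6 libraries and that many genes high values arise easily, and r is given as a description. Oprm1 was most like Kcnt1 (r = 0.997), a sodium-activated potassium channel gene, Stk39 (0.994), a kinase gene, and Gnal (0.992), which encodes a stimulatory G protein subunit. Kcnt1 was at 8.84, 5.46, 15.0, 12.7, 9.65 and 9.99 CPM in replicates 1 to 6, so it too was lowest in replicate 2 and highest in replicate 3. Penk was most like Prickle1 (0.998), a planar cell polarity gene, Man1a (0.994), a mannosidase gene, and Ptges3-ps (0.993). Prickle1 reached 12.5 CPM in replicate 5 and lay between 3.44 and 5.43 CPM in the others. Cnr1 was most like Pde4dip (0.992), Fastkd1 (0.991) and Tbccd1 (0.978), Faah like Lmbr1 (0.997), Zfp445 (0.996) and Diras2 (0.995), and Mgll like Mapkapk3 (0.996), a stress-activated kinase gene, Rnaseh1 (0.993) and Gm8283 (0.991). An r above 0.95 was reached by 118 genes with Mgll, 116 with Penk, 95 with Faah, 43 with Oprm1 and 11 with Cnr1.

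The rest of both pathways was examined in lists holding 73 genes. Over 3 counts in every library were 36.2% of all genes, 62.2% of protein-coding genes and 62 of these 73. The chi-square test called 57 of the 58 that passed the filter, against 76.3% of all genes; Cnrip1, whose product binds CB1, was not called (adjusted p = 0.0654). Of the 27 shared signalling genes (G proteins, receptor kinases, arrestins, RGS proteins and effectors), 20 had a higher mean CPM per kb than Oprm1 and 7 did not. The latter, named after their values were seen, were Grk3, Rgs14, Adcy8, Kcnj3, Kcnj5, Kcnj6 and Kcnj9. By mean CPM per kb, Oprm1 lay above 66.1% of all genes. It lay above 7.78% of the protein-coding genes over 3 counts in every library, so a level above Oprm1 was common among counted genes. All 7 inhibitory G protein genes were counted in every library, led by Gnai2 at 588 ± 32.0 CPM and the beta subunit gene Gnb1 at 627 ± 11.5 CPM. So were all 6 receptor kinase and arrestin genes, with the arrestin gene Arrb1 at 214 ± 44.3 CPM and the receptor kinase gene Grk2 at 88.1 ± 6.76 CPM. Of 5 genes for RGS proteins, which speed the switching-off of G proteins, 4 were counted in every library, with Rgs4 at 93.3 ± 25.4 and Rgs19 at 17.5 ± 2.82 CPM. Of 9 effector genes, 7 were, with the cyclase genes Adcy6 at 115 ± 10.1 and Adcy5 at 43.9 ± 7.56 CPM, whereas the inward-rectifier potassium channel genes Kcnj5 and Kcnj9 had at most 3 counts in any library.

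On the opioid side, the other precursor genes Pomc and Pnoc were at 0.165 ± 0.0767 and 0.0874 ± 0.0577 CPM, with Pnoc at most 3 counts in any library. All 6 genes of precursor processing were counted in every library. Cpe, the carboxypeptidase that trims peptide precursors, was at 675 ± 149.5 CPM and the protease gene Ctsl at 592 ± 75.9 CPM. All 5 genes of peptide-degrading enzymes were counted, led by Lnpep at 144 ± 15.1 and Dpp3 at 72.3 ± 2.81 CPM. Among 4 genes for non-classical opioid-binding proteins, all counted in every library, the opioid growth factor receptor gene Ogfr was at 49.5 ± 4.37 CPM.

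On the endocannabinoid side, all 5 genes of the 2-AG synthesis list were counted in every library. Dagla, the diacylglycerol lipase that makes 2-AG, was at 292 ± 43.5 CPM and had 276, 360.3, 287, 289, 228 and 312 CPM in replicates 1 to 6. It stood at 46.9 ± 6.98 CPM per kb, against 9.51 ± 3.49 for Mgll, which breaks 2-AG down. The highest of the other enzymes listed as acting on these lipids, Abhd12, stood at 47.3 ± 3.33 CPM per kb. Dagla against Mgll alone therefore does not compare synthesis with breakdown as a whole. The phospholipase C gene Plcg1 was at 27.0 ± 7.39 CPM. In the anandamide synthesis list 4 of 7 genes were counted in every library, led by Abhd4 at 470.3 ± 75.9 and Gde1 at 79.5 ± 8.98 CPM, and Pla2g4e had at most 3 counts. Other enzymes acting on these lipids were counted for 4 of 5 genes, with Abhd12 at 119 ± 8.36 CPM. Ptgs2, the inducible cyclooxygenase, was at 64.8 ± 72.0 CPM. Its lowest value was 2.83 CPM (replicate 1) and its highest 204 CPM (replicate 5), the library in which Penk and the fibroblast markers were highest.

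All 6 genes for lipid carriers and receptor-interacting proteins were counted in every library. The fatty acid-binding protein genes Fabp5 and Fabp7 were highest per kilobase, at 154 ± 36.5 and 44.2 ± 9.57 CPM. Of 6 other receptor genes for these lipids, 4 were counted in every library, and Gpr18 had at most 3 counts. Ppara was at 3.95 ± 1.25 CPM. Trpv1, the heat- and capsaicin-gated channel that anandamide also opens, was at 27.7, 14.9, 50.3, 41.7, 31.9 and 26.8 CPM in replicates 1 to 6. Its lowest library was replicate 2 and its highest replicate 3, as for Oprm1, whose level was 0.911 and 3.97 CPM there.

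**Figure D4:**
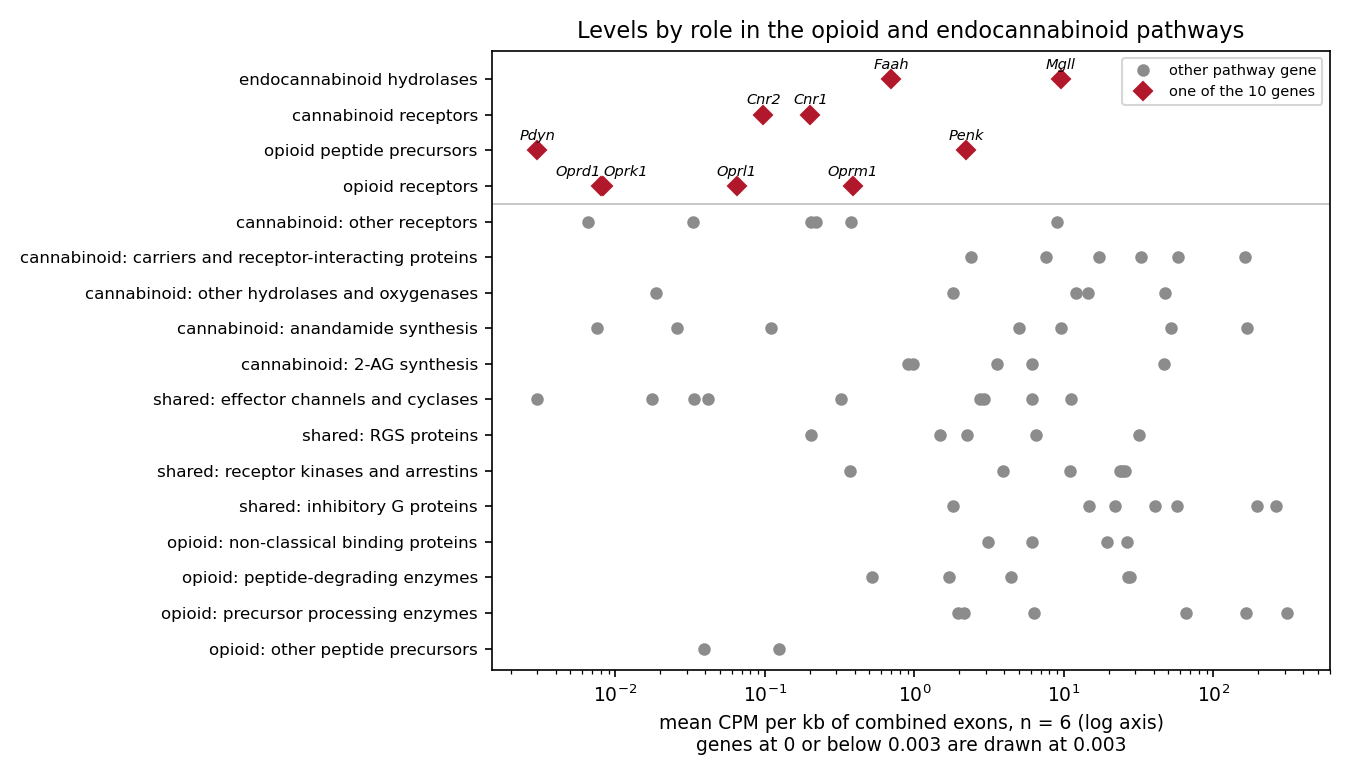
Mean CPM per kb over the 6 libraries for the 10 genes (red diamonds, upper 4 lines) and for 73 other genes of the pathways (grey points), by role on a log axis; genes at 0, or under the lowest value drawn, are placed at that value on the left. The opioid and cannabinoid receptors lie below 1 CPM per kb, while the highest G protein and precursor-processing genes lie above 100 and, of the 2-AG synthesis genes, Dagla alone (46.9) lies above 10.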

How the data were processed

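RNA sequencing was done on 6 replicate cultures, 1 library each, from 500 ng of total RNA with poly-A selection, a stranded library kit and 15 PCR cycles, and RNA integrity numbers of at least 8.7, per the labels' protocols. The authors deposited estimated counts per gene with no scaling; 13.4% to 14.7% of the values of a library were not whole. The submitters' processing notes name bcl2fastq 2.20.0.422, cutadapt 2.5, STAR 2.7.2b, featureCounts 1.6.4 (Subread) and the build GRCm38.p6. Settings for strand, overlapping genes and multi-matching reads are not given in the sources used here, so counts of overlapping or antisense genes are less certain. Combined exon lengths and coordinates are those of the deposited table, and coordinates equal the RefSeq annotation of GRCm38.p6 for all 10 genes. There were 0 further columns of per-sample values.

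CPM used library totals. Counts were rounded before use in R 4.3.3 with edgeR 4.0.16 and DESeq2 1.42.0, and permutations were run in Python 3.11.15 with scipy 1.17.1. Genes were kept with filterByExpr, and the chi-square test had 5 degrees of freedom and a threshold of 0.05. The chi-square test alone was tried on simulated Poisson counts with 1 of 6 libraries changed. It recovered 58 of 67 genes changed 1.5-fold and 66 of 67 changed 2-fold, with 9 other calls among 14939 genes. Unlike the real counts, these held no spread between cultures beyond counting. Differences used a pseudocount of 0.1 and the 64 sign patterns of 6 libraries. Relations used log2(TMM-scaled CPM + 0.5). The chi-square p-values set the spread between these cultures against counting noise, and those of the edgeR fit set it against like genes. The permutation p-values take the library as the unit.

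The members and lists were chosen with earlier results of these data known. Named genes were all members, the highest 2 of each pathway list by CPM per kb, list genes with at most 3 counts throughout, and the 3 genes most like each called member; some genes that this rule names are not reported here. Hrasls5 was found in the table under its symbol Plaat5. Lengths of the longest GENCODE M21 transcript were added as an alternative after the data were seen.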

Additional observations from a re-analysis of the deposited data

Results flagged for a closer look

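For each measure, the distance of the highest or lowest of the 6 libraries from the next one was taken as a share of the whole range and compared with Dixon's 95% critical value for 6 samples. Of 52 measures examined, 7 exceeded it, where chance alone would give 2.6, and several of the measures share libraries and genes.

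The Penk level had a ratio of 0.828, with 9.75 CPM in replicate 5 and 3.14 CPM in the next library. The difference Penk minus Pdyn, which follows Penk because Pdyn was at 0, had 0.672. Ptgs2 (0.658; 204 CPM in replicate 5 and 71.8 in the next), Plcg1 (0.715; 41.5 and 26.4 CPM) and the summed endothelial markers (0.713; 142 and 48.4 CPM) were extreme in the same library. The difference Oprd1 minus Oprk1 had 0.731, with replicate 6 lowest at -0.38, and rests on 5 counts of each gene. The summed lymphocyte markers had 0.796, with replicate 1 lowest at 0.675 CPM against 1.19 CPM in the next. No cause was tested for any of these.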

How the results depend on the processing

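The count of 5 members over 3 counts in every library was also 5 with a minimum of 10 counts or after thinning, and 4 with a minimum of 1 CPM. The count of 5 members varying beyond counting noise was 5 with DESeq2 size factors, library totals or counts rounded down, and 6 without the filter. Leaving out each replicate gave 4 to 5. The quasi-dispersion fit of edgeR called 0 members, but it asks another question. It sets the spread against like genes and not against counting noise. Cnr1 minus Cnr2 passed with no length scaling (2.64) and with the longest GENCODE transcript (1.42), and Oprd1 minus Oprl1 missed the threshold with no length scaling (-1.17). The other 33 alternative values of the 9 differences, and all 60 of the 20 relations, kept their side of the threshold. The size of differences that involve genes near 0 followed the pseudocount. With pseudocounts of 1 and 0.01, Oprm1 minus Oprd1 was 0.453 and 4.45, and Penk minus Pdyn was 1.54 and 7.51. Oprk1 minus Oprl1 was -0.0777 and -2.11, and Mgll minus Faah was 2.57 and 3.71. Differences with 5 libraries cannot go below an exact p of 0.0625, so no call was possible there. Their ranges were 3.43 to 3.63 for Mgll minus Faah, 3.92 to 4.40 for Penk minus Pdyn, 1.99 to 2.29 for Oprm1 minus Oprd1, 2.00 to 2.27 for Oprm1 minus Oprk1, 1.42 to 1.74 for Oprm1 minus Oprl1, -0.68 to -0.46 for Oprd1 minus Oprl1 and -0.66 to -0.46 for Oprk1 minus Oprl1. No paired analysis was possible because the labels give a single group. Depth limits Oprd1, Oprk1, Oprl1, Pdyn and Cnr2, which had 0 to 53 counts in all libraries together.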
